A study of Mus musculus with 2 samples.

Results

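The 7 clock output genes Dbp, Tef, Hlf, Nfil3, Bhlhe40, Bhlhe41 and Ciart were described in DNase-seq data from mouse cerebellum, out of 21938 coding genes on chromosomes 1 to 19, X and Y. They were taken as a named list, not by their values, and each gene was examined over its body and 50 kb on either side. In DNase-seq, nuclei are treated with the enzyme DNase I, which cuts accessible stretches of the genome most often. Whole cerebellum was taken from males, 8 to 10 months old and with no treatment listed, of B6CASTF1/J, the first-generation cross between B6 and CAST mice. There was a single group of 2 libraries, labelled as biological replicates 1 and 2, and every library pooled 2 biosamples. Both pools carry the same donor label, and the labels do not say whether they share animals or at what time of day tissue was taken. The spread between replicates may therefore be technical in part, and no condition can be compared with another.

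The mammalian clock is a feedback loop in which the factors CLOCK and BMAL1 bind E-boxes and switch on their own repressors. Dbp, Tef and Hlf encode the PAR bZIP factors, activators that bind D-boxes in clock-controlled genes. NFIL3 represses from the same D-boxes. BHLHE40 and BHLHE41 (also called DEC1 and DEC2) are repressors that bind E-boxes, and CIART (also called CHRONO) is a repressor that acts on CLOCK and BMAL1. Dbp is a well-studied direct target of CLOCK and BMAL1, through E-boxes within the gene.

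The 4 accessible regions below are printed first, because they hold E-boxes (CACGTG) and show both cases described below, E-boxes inside footprints and E-boxes outside them. A region here is the union of overlapping peaks from the authors' stricter list of either library, and the regions shown were present in both. Each is printed 5′ to 3′ on the strand of its gene, with E-boxes in capitals, from the RefSeq copy of GRCm38 (mm10). That reference is based on B6, and the CAST allele of the mice was not resolved. The Dbp region lay in intron 2 (chr7:45707621-45707880). The Hlf region lay upstream of the gene (chr11:90417981-90418260). The Ciart stretch was the promoter, trimmed to bases before the gene start (chr3:95882252-95882500). The Bhlhe41 region lay beyond the end of the gene (chr6:145855741-145855960). The Hlf and Bhlhe41 regions stand outside the gene bodies and were chosen after their values had been seen.
Dbp intron: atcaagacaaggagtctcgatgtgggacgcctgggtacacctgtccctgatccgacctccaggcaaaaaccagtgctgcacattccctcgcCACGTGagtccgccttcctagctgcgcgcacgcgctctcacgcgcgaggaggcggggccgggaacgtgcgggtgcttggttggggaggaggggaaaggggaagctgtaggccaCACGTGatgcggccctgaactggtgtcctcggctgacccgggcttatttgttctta
Hlf upstream: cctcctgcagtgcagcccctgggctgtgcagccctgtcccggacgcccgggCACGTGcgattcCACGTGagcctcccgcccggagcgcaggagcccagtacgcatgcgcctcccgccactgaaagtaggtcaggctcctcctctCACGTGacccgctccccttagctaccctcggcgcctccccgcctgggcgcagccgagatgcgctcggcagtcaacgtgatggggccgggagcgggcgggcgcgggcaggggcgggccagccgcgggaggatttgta
Ciart promoter: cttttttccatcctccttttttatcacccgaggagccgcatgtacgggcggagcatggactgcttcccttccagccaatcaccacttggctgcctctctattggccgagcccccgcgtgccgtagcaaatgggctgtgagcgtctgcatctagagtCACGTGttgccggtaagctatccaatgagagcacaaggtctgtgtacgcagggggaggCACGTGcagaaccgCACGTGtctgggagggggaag
Bhlhe41 downstream: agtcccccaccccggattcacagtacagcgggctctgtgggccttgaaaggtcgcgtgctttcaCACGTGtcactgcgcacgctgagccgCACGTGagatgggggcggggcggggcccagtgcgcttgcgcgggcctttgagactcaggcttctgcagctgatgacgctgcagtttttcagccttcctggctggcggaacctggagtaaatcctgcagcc
The Hlf and Ciart sequences held 3 E-boxes each, and those of Dbp and Bhlhe41 held 2 each.

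All 7 members had a peak of the stricter list within 1 kb of an annotated transcript start in both libraries. Among all coding genes 58.4% had such a peak in replicate 1, 57.2% in replicate 2 and 55.9% in both. The strength of a peak is the authors' signal, a coverage value of unstated scale, and the strongest start peak stands for a gene. Signals were lower in replicate 2 across the genome. Over 46923 peaks of replicate 1 that overlapped a peak of replicate 2, the median log2 ratio of replicate 2 to replicate 1 was -0.41, and the 10th and 90th percentiles were -0.91 and 0.27. The ratios of all 7 members, from -0.79 at Hlf to -0.06 at Dbp, fell within that range. Genes are therefore placed below by their percentile among coding genes within each library.

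The activators Dbp and Tef had the strongest start peaks. Dbp (chr7:45705088-45710203, plus strand) had a signal of 13.4 in replicate 1 and 12.9 in replicate 2, or 13.2 ± 0.367 (SD, n = 2), above 97.7% and 99.0% of coding genes. Tef (chr15:81802421-81826863, plus strand) had 13.8 and 9.56, or 11.7 ± 2.99 (SD, n = 2), at percentiles 98.0 and 96.3. Tef led in replicate 1 and Dbp in replicate 2, so their order was not settled by these libraries. The third PAR bZIP gene, Hlf (chr11:90336536-90390895, minus strand), was lower, with 6.35 and 3.69, or 5.02 ± 1.89 (SD, n = 2), at percentiles 79.0 and 73.7. In each library the signal at Hlf was below that at Dbp and Tef, with no overlap between the genes.

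The repressors had weaker start peaks than Dbp and Tef in both libraries. Ciart (chr3:95878503-95882251, minus strand) gave 6.69 and 6.38, or 6.54 ± 0.215 (SD, n = 2), at percentiles 80.7 and 88.5. Bhlhe40 (chr6:108660629-108666925, plus strand) gave 7.09 and 5.11, or 6.1 ± 1.41 (SD, n = 2), at percentiles 82.4 and 82.8. The 2 values of Bhlhe40 came from different peaks, a peak inside the gene in replicate 1 and a peak just upstream in replicate 2. Its paralogue Bhlhe41 (chr6:145858243-145865558, minus strand) gave 4.32 and 2.69, or 3.51 ± 1.15 (SD, n = 2), at percentiles 67.9 and 65.8. Nfil3 (chr13:52967209-52981073, minus strand) gave 3.71 and 3.02, or 3.37 ± 0.488 (SD, n = 2), at percentiles 63.9 and 68.6. Bhlhe41 and Nfil3 changed places between the libraries, as did Bhlhe40 and Ciart. In the order of means, neighbours overlapped in their values, except that the lowest value of Tef, 9.56, was above the highest of Ciart, 6.69.

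Over the 7 members the median start signal was 6.69 in replicate 1 and 5.11 in replicate 2. The median over the 12257 coding genes with a start peak in both libraries was 5.05 and 3.46. Bhlhe41 and Nfil3 were below that median in both libraries, and the other members were above it in both. In whole tissue, an opening in few cells and a weak opening in many cells cannot be told apart.

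**Figure D1:**
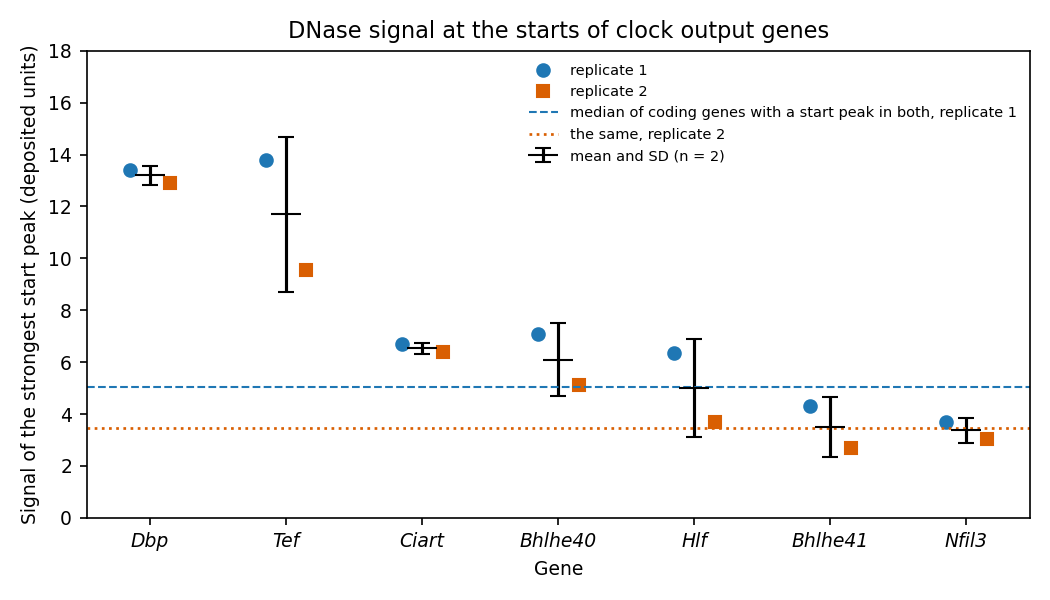
The signal of the strongest start peak of each member is plotted in the authors' deposited units for replicate 1 (blue circles) and replicate 2 (orange squares), with the mean and SD of the 2 libraries as black bars. The dashed and dotted lines are the medians of 5.05 and 3.46 over coding genes with a start peak in both libraries; Dbp and Tef stand well above both lines, and Bhlhe41 and Nfil3 below the line of their library.

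Beside these output genes, all 20 other clock genes examined, core factors and their regulators, had a start peak in both libraries. The 3 highest by mean were the repressor gene Per1 at 15.9 ± 0.748 (SD, n = 2), the ubiquitin ligase gene Btrc at 15.4 ± 3.55 (SD, n = 2) and the REV-ERB gene Nr1d2 at 14.8 ± 0.851 (SD, n = 2). The 3 lowest were Arntl2 at 0.58 ± 0.168 (SD, n = 2), Rorb at 0.78 ± 0.361 (SD, n = 2) and Npas2 at 1.02 ± 0.0976 (SD, n = 2). The 20 genes had a median of 7.29 and 6.18, and the members ranged from 3.71 to 13.8 in replicate 1 and from 2.69 to 12.9 in replicate 2. The tissue label was checked against marker genes. All 8 granule cell markers had a start peak in both libraries, while 2 of 5 astroglial, 1 of 4 oligodendrocyte, 0 of 4 microglial and 0 of 4 forebrain markers did. Of 3 liver markers none had a start peak in replicate 1 and 1 did in replicate 2.

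Over the 7 windows the stricter lists held 106 peaks in replicate 1 and 111 in replicate 2. Of these, 78.3% and 74.8% overlapped a peak of the other library, where 76% and 66.1% did over all peaks. The peaks merged into 125 regions, of which 76 were present in both libraries, 21 in replicate 1 alone and 28 in replicate 2 alone. Of the 76 regions in both, 24 lay within 1 kb of a start of the member, 5 elsewhere in its body, 17 at starts of neighbouring coding genes and 30 outside all of these. Windows differed widely. Those of Dbp and Tef held 19 regions of both libraries each, and those of the other 5 genes between 6 and 9. Per 100 kb, replicate 1 had 20 shared peaks at Dbp and 16.9 at Tef, beside a median of 2.97 over coding genes, which put the 2 windows at percentiles 98.7 and 97.8. Hlf had 4.53 per 100 kb, at percentile 66.4. The Dbp window holds starts of 9 other coding genes, that of Ciart 6 and that of Tef 4. Those of Nfil3 and Bhlhe41 hold 1 each, and the Hlf and Bhlhe40 windows hold 0. Shared peaks did not follow these counts in every window: Ciart had 5.78 per 100 kb, at percentile 76.4, and Bhlhe40 9.41, at percentile 90.6.

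**Figure D2:**
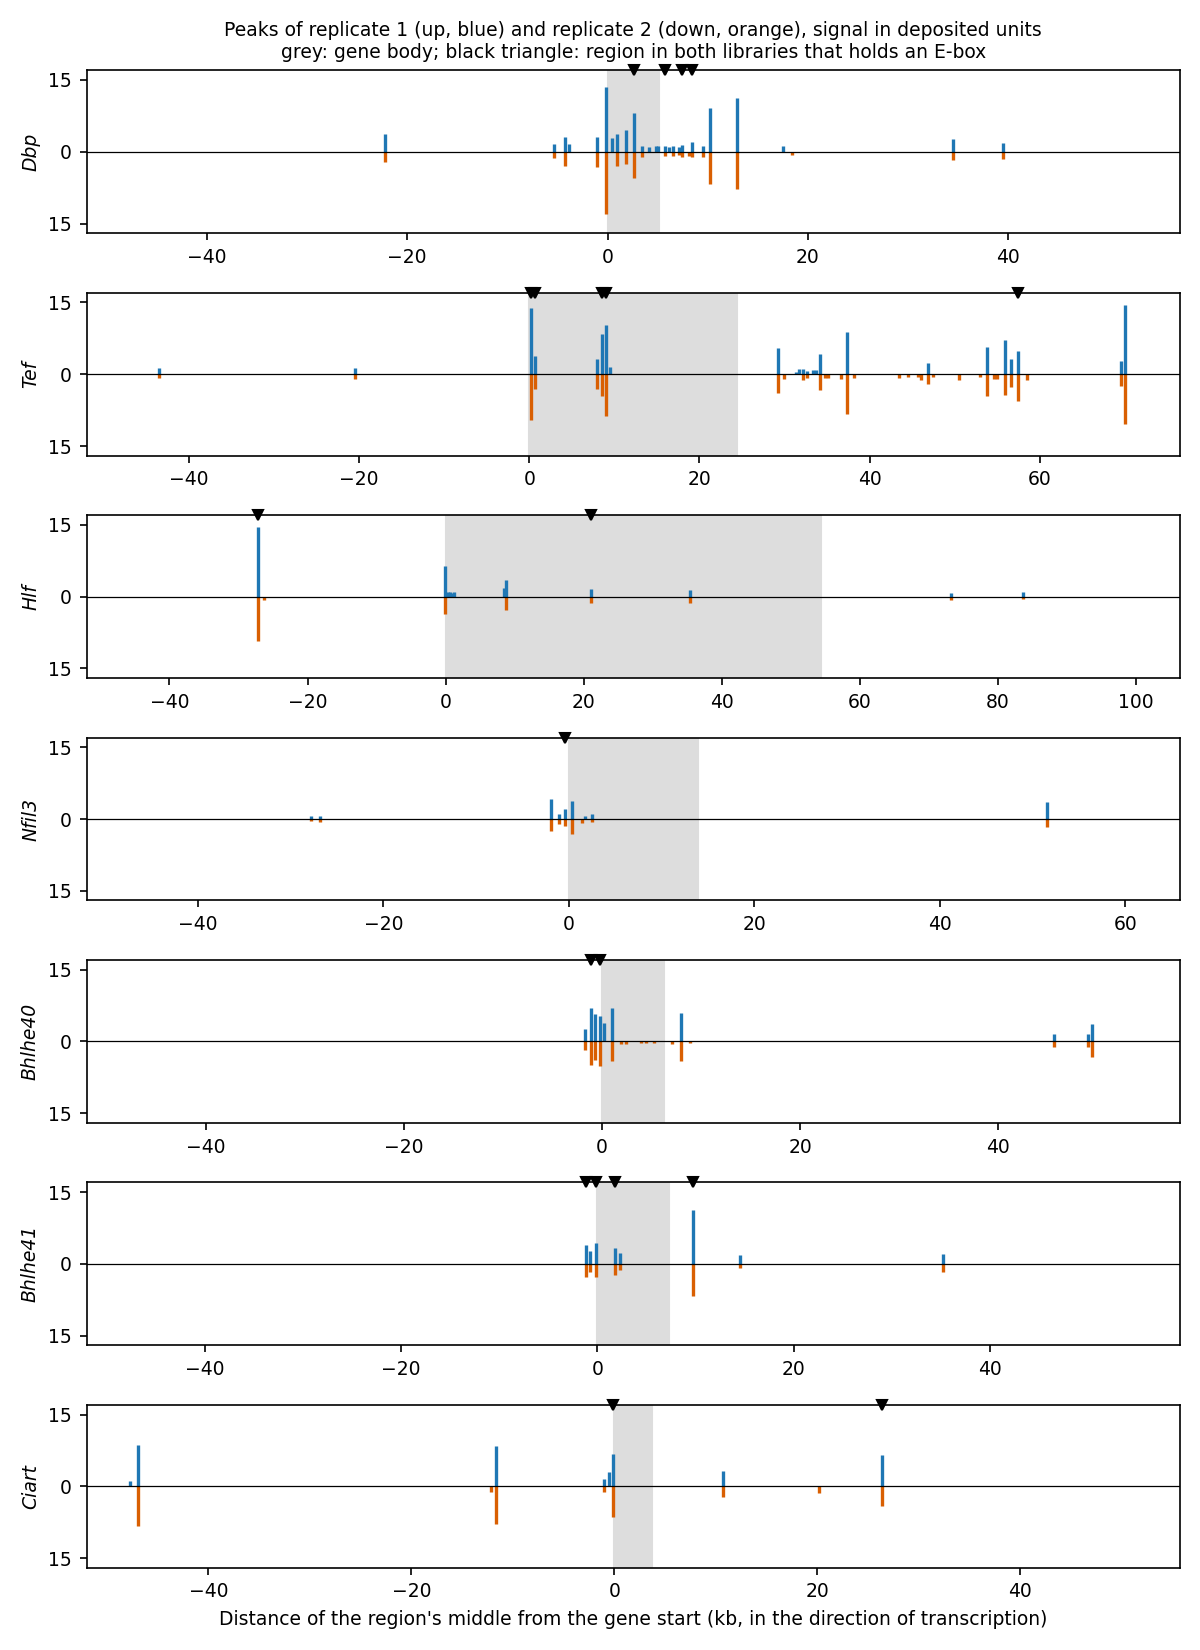
Each panel shows the window of a member, with the distance of a region from the gene start in kb in the direction of transcription on the horizontal axis and peak signal in deposited units on the vertical axis, replicate 1 upward in blue and replicate 2 downward in orange. Grey marks the gene body and black triangles mark regions of both libraries that hold an E-box; the tallest bars of Hlf at -27.2 kb and of Bhlhe41 at 9.7 kb lie away from the gene starts, while those of Dbp and Tef include the starts.

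Dbp had 6 accessible regions of its own in both libraries, strung along a gene of 4 exons. Distances are given to the middle of a region, in the direction of transcription, with negative values upstream. The promoter region at -0.1 kb (chr7:45704781-45705120) was among the strongest of either list, above 99.2% and 99.7% of all peaks. The next strongest of its own regions was the printed region at 2.7 kb in intron 2, with a signal of 8.15 in replicate 1 and 5.44 in replicate 2. A region at 1.9 kb over exon 2 had 4.46 and 2.64, and a region at 0.9 kb in intron 1 had 3.75 and 2.93. A weak region at 3.4 kb in intron 3 had 1.25 and 1.13. The sixth, at -1.0 kb, had 3.15 and 3.1 and lay in the end of Car11, a carbonic anhydrase family gene. It was also within 1 kb of an annotated transcript start of Car11, so the annotation does not assign it to Dbp alone. Introns 1, 2 and 3 thus each held an accessible region in both libraries.

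The promoter of Dbp is printed next because it was the strongest peak of the member loci by its rank in replicate 2, and it held no E-box. Capitals mark the CCAAT box, the core of the site of the factor NF-Y, here on the reverse strand as ATTGG (chr7:45704784-45705083).
Dbp promoter: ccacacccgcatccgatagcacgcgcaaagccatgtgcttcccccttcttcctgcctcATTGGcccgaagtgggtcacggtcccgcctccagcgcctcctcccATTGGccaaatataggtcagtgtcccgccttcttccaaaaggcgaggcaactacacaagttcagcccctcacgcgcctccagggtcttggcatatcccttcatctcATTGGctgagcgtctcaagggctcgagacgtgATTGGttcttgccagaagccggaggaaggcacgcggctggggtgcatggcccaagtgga
The stretch held 4 CCAAT boxes, and 37.4% of all 32851 RefSeq promoters of the same length in the table used held at least 1. The RefSeq promoter of Dbp lies further downstream than the printed stretch (chr7:45704997-45705296) and held 2. The CCAAT box centred at -199 bp lay inside a footprint of both libraries, from -229 to -192 bp in replicate 1 and from -229 to -190 bp in replicate 2. The boxes at -93 and -61 bp were touched by a footprint in both libraries without lying inside it, and the box at -244 bp was not. A footprint is a short stretch within accessible DNA that the authors called as protected from cutting. Footprints carry a single constant value, 0.01, and cannot be ranked.

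From the end of Dbp onward, weak accessibility ran on into Sphk2, a sphingosine kinase gene on the opposite strand. Between 4.2 and 9.5 kb there were 6 regions of both libraries and 5 of a single library, 4 of the latter in replicate 1. Their signals did not exceed 2.03. The strongest regions of the window outside Dbp were at the starts of Sphk2 and of the ribosomal protein gene Rpl18, with 11.3 and 7.74 at 12963 bp and 9.19 and 6.75 at 10.2 kb. Next came a region at -4.2 kb at the start of Car11, with 3.04 and 2.89, and a region at -22.2 kb in Sec1, with 3.63 and 2.08. The Sec1 region was the higher of these in replicate 1 and the lower in replicate 2.

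Tef was accessible at 2 groups of starts. The first start carried the strongest region of the gene (chr15:81802461-81802760), with the 13.8 and 9.56 given above and 5 footprints that overlapped between libraries. A region at 0.7 kb followed with 3.86 and 3.18. Inside intron 1, at the starts of shorter transcripts, 3 further regions stood at 7.9, 8.5 and 9.0 kb. The region at 9.0 kb (chr15:81811241-81811560) had 10.3 and 8.71 and 8 footprints overlapping between libraries, close in signal to the first start in replicate 2. The region at 8.5 kb had 8.37 and 4.61 and the region at 7.9 kb had 3.26 and 3.1. The 2 promoters differed in base composition. The promoter of the first start had a ratio of observed to expected CpG of 0.29 and that of the internal start 0.88, where the median over promoters was 0.38.

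Farther out, the Tef window held a region at 37.4 kb, away from any coding gene, with 8.87 and 8.28, and another at 55.9 kb, at the start of the antiproliferative gene Tob2, with 7.16 and 4.36. The region at 29.2 kb, with 5.44 and 4.03, held the only match to the CTCF consensus among the regions of both libraries in the 7 windows, inside a footprint of both. That motif was added after peaks of these loci had been seen; 7.93% of all regions of both libraries hold it, and 76.4% of its matches lie in a footprint of both.

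Hlf differed from the other PAR bZIP genes in that its strongest region was not at a start. The region printed above, at -27.2 kb with no coding gene over it, had a signal of 14.5 in replicate 1 and 9.31 in replicate 2. That put it above 99.5% and 98.8% of all peaks, while the promoter with 6.35 and 3.69 was above 91.8% and 88.7%. All 7 footprints in it in replicate 1 overlapped a footprint of replicate 2. The remaining regions of both libraries were weaker. The region at 8.7 kb in intron 2, at an internal start, had 3.47 and 2.9. Regions deeper in intron 2 had 1.68 and 1.4 at 21.1 kb, and 1.35 and 1.24 at 35.5 kb. Beyond the end of the gene only regions of about 1 or lower remained, with 1.06 and 0.582 at 83.7 kb and 0.785 and 0.708 at 73.2 kb.

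The promoter of Hlf is shown because it held the only full CRE, the site of CREB and ATF factors (TGACGTCA, in capitals), among the members' own regions. The stretch ends at the base before the gene start (chr11:90390896-90391120, minus strand).
Hlf promoter: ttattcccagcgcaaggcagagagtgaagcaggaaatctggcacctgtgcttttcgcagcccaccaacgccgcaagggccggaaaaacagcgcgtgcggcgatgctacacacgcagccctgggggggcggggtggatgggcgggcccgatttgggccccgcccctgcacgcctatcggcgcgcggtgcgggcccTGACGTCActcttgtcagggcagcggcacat
The CRE was centred at -28 bp and lay inside a footprint of both libraries, from -43 to -20 bp in replicate 1 and from -43 to -21 bp in replicate 2. Full CREs occur in 1.79% of all promoters and in 1.67% of regions of both libraries, where 70.3% of matches lie in a footprint of both. Further upstream, 3 GC boxes (GGGCGG, the site of SP and KLF factors) also lay in footprints of both libraries.

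Nfil3 had a broad but weak promoter. The region over the start (chr13:52980261-52981120) was followed upstream by regions at -0.4 kb, with 2.1 and 1.43, and at -1.1 kb, with 1.08 and 0.942. The promoter was the richest in bases G and C of the members, with 81.7% against a median of 52.7%, above 99.4% of promoters. A region at -1.9 kb had 4.2 and 2.45 and so exceeded the promoter in replicate 1 and not in replicate 2. Intron 1 held a region at 2.4 kb with 0.999 and 0.664. Away from the gene, the start of Auh at 51.5 kb had 3.49 and 1.62, and the region at -26.9 kb had 0.735 and 0.67.

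Bhlhe40 was accessible mainly upstream of its start. Regions at -0.2, -0.7 and -1.1 kb had 5.28 and 5.11, 5.73 and 3.79, and 7.06 and 4.91. These overlap a long noncoding gene on the opposite strand, 0610040F04Rik, and the region at -1.1 kb also overlaps the noncoding Gm17055, so the annotation does not assign them to Bhlhe40 alone. Inside the gene, a region at 1.0 kb, with its middle in intron 3, had 7.09 and 3.97. Outside the gene the strongest were at 8.0 kb with 5.93 and 4.06, at 49.5 kb with 3.72 and 3.15, and at -1.7 kb with 2.71 and 1.88.

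Bhlhe41 resembled Hlf in having its strongest region away from the gene. The printed region at 9.7 kb, beyond the end of the gene, had 11.3 in replicate 1 and 6.71 in replicate 2, above 98.3% and 96.5% of all peaks. The promoter, with 4.32 and 2.69, was above 85.0% and 83.1%. Within the gene, the region at 1.8 kb in intron 4 had 3.42 and 2.21, and the region at 2.3 kb in exon 5 had 2.33 and 1.32. Upstream, the regions at -0.7 and -1.2 kb had 2.73 and 1.76, and 3.93 and 2.83. Another distal region, at 35.2 kb, had 2.03 and 1.61. All 8 peaks of replicate 1 and all 9 of replicate 2 in this window overlapped a peak of the other library.

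Ciart had a single strong region of its own, the promoter (chr3:95882181-95882500) with 6.69 and 6.38, and a weak region at -1.0 kb with 1.59 and 1.2. The other 4 regions of both libraries in its window were at starts of neighbouring genes. Those of the histone chaperone gene Anp32e at -47.0 kb, with 8.61 and 8.17, and Aph1a, a gamma-secretase subunit gene, at -11.6 kb, with 8.41 and 7.86, exceeded the Ciart promoter in both libraries. The region at the splicing factor gene Prpf3, at 26.4 kb, had 6.46 and 4.03. No region of both libraries lay outside gene starts in this window.

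E-boxes were frequent in the accessible regions of these windows. Of the 76 regions of both libraries, 20 (26.3%) held CACGTG, searched on both strands as a palindrome, where 7.17% of all 44664 such regions and 10.4% of those at coding gene starts held it. Among the members' own regions, at a start or in the body, 12 of 29 (41.4%) did, and among the other 47 regions of the windows 8 (17%) did. The windows of the 20 other clock genes held it in 26 of 211 regions (12.3%). Within these, the Period and cryptochrome windows held it in 10 of 85 (11.8%) and the ROR and REV-ERB windows in 11 of 61 (18%). Regions of the members were wider, with a mean of 354 bp against 300 bp over all. Per kb of accessible sequence the windows had 1 match and all regions 0.264. These shares are descriptions of a chosen list, and no test was made.

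Every member had at least 1 E-box in a region of its own, 7 of 7 genes, beside 19.4% of the 13715 coding genes with a region of both libraries at a start or in the body. The members have 2 to 6 such regions each, and among coding genes with as many the share was 23.2%. Tef had the most, 5 matches in 4 of its 5 regions, spread over both groups of starts. Ciart had 3 in its promoter, centred at -19, -33 and -91 bp. Dbp had 2 in intron 2, Bhlhe40 2 upstream, at -254 and -1183 bp, and Bhlhe41 2, at -13 and 1756 bp. Nfil3 had 1, at -664 bp, and Hlf 1, in intron 2. Away from their own starts and bodies, Hlf had 3 more in its upstream region, and Bhlhe41 had 2 in its downstream region and 1 at -1202 bp. Dbp also had 3, all beyond the end of the gene, and the Tef and Ciart windows had 1 each.

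**Figure D3:**
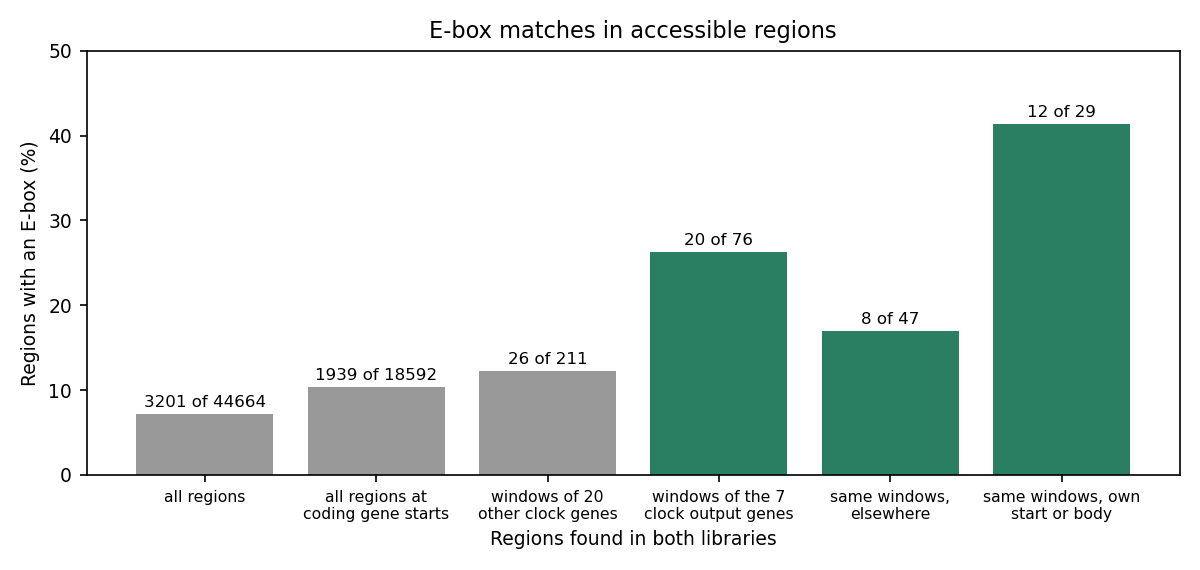
Bars give the percentage of regions found in both libraries that hold an E-box, with the counts above each bar, for all regions, regions at coding gene starts, windows of other clock genes and windows of the members, whole and split into own starts and bodies and elsewhere. The members' own starts and bodies have the tallest bar, 12 of 29, and the bar of all regions is the lowest.

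Few of these E-boxes lay inside footprints. Over the 7 windows 4 of 27 matches lay wholly inside a footprint of both libraries, where 14.1% of all 3532 matches did, so the members' share was near the background. Of the 4, Hlf held 3 and Dbp 1. In the Hlf upstream region, the E-boxes centred at -27312 and -27300 bp shared a single footprint, from -27323 to -27291 bp in replicate 1 and from -27320 to -27292 bp in replicate 2. The E-box at -27219 bp had a footprint of its own in both libraries, of 19 bp and 17 bp. In intron 2 of Dbp, the E-box at 2627 bp lay in a footprint of both libraries, of 24 bp and 20 bp, and the E-box at 2740 bp lay in a footprint of replicate 1 alone.

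**Figure D4:**
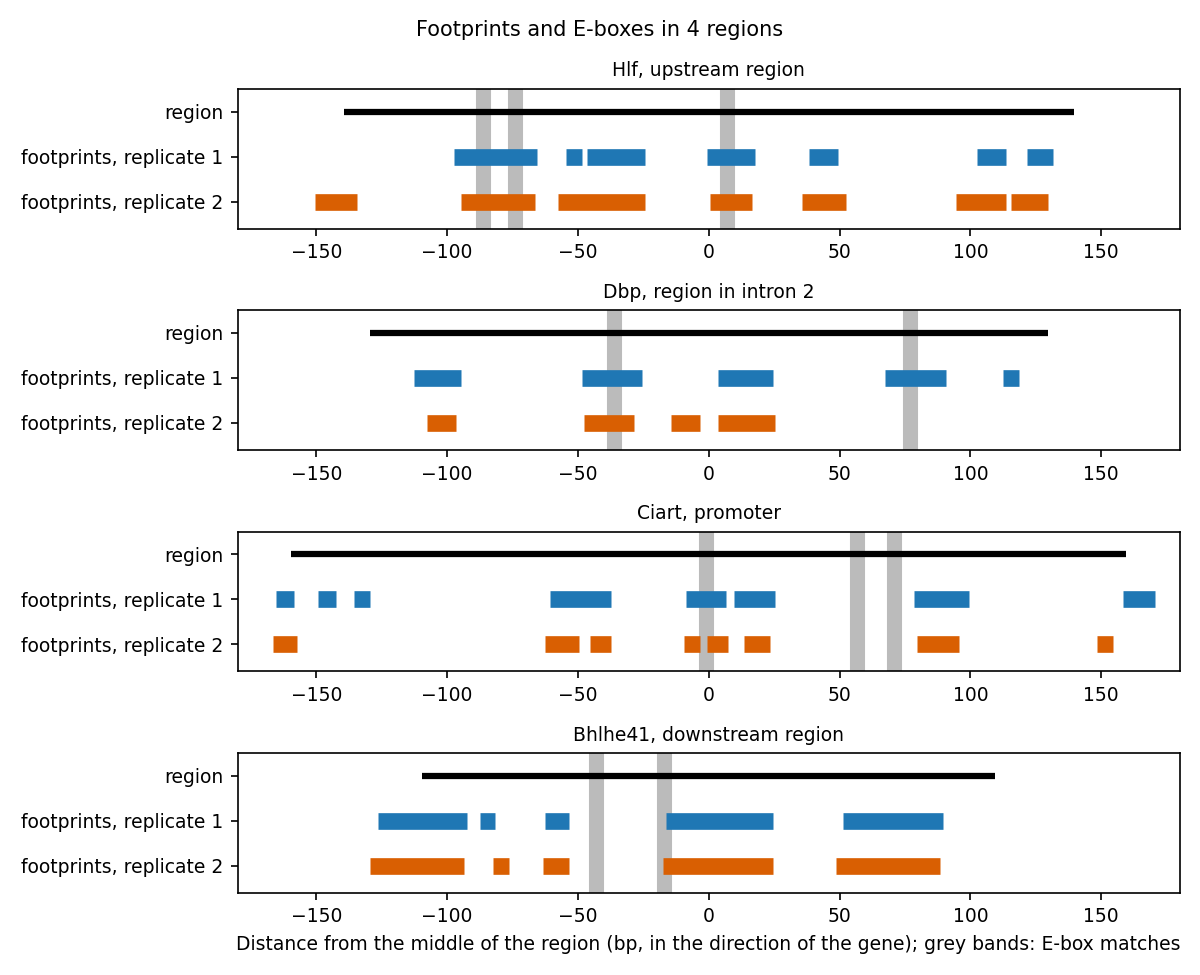
Footprints of replicate 1 (blue) and replicate 2 (orange) are drawn against the distance in bp from the middle of the region, which is the black line, for the 4 regions whose sequences open the description. Grey bands are E-boxes: all 3 bands of Hlf and 1 of Dbp fall inside footprints of both libraries, whereas in Ciart and Bhlhe41 no band lies wholly inside footprints of both.

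At the other members no E-box lay wholly inside a footprint of both libraries, though some were touched by footprints of both. The Tef E-boxes at 128, 673 and 8525 bp were touched in both libraries and lay inside a footprint of neither. In the Ciart promoter the E-box at -91 bp lay inside a footprint of replicate 1, where replicate 2 had a pair of shorter footprints that only touched it, and the E-boxes at -19 and -33 bp lay in none. In the Bhlhe41 downstream region 5 footprints of replicate 1 all overlapped footprints of replicate 2. The longest ran from 9691 to 9732 bp in replicate 1 and from 9690 to 9732 bp in replicate 2. In both libraries it covered part of the E-box centred at 9690 bp. The E-box at 9664 bp lay in none. A further 3 E-boxes of members' own regions lay inside a footprint of a single library and were touched by a footprint of the other. These, and the E-box at the Bhlhe41 start that lay in none, are printed with the bases around them, the E-box in capitals, since their neighbourhood can be set beside the regions above. These sites, and the promoters of Ciart above and Bhlhe40 below, were chosen for printing after their values had been seen.
Tef, internal start, inside a footprint in replicate 1 (chr15:81811264-81811293): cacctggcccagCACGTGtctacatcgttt
Bhlhe40, upstream, inside a footprint in replicate 2 (chr6:108659431-108659460): ccgcgtccgggcCACGTGaagcgtcacgcc
Hlf, intron 2, inside a footprint in replicate 1 (chr11:90369845-90369874): tggttttgcagtCACGTGgagagcaatgtg
Bhlhe41, start, no footprint (chr6:145865556-145865585): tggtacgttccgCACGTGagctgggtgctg
The Bhlhe40 promoter, whose E-box at -254 bp lay in no footprint of either library, is given in full, since all 4 of its footprints in replicate 2 overlapped footprints of replicate 1 elsewhere in the same region (chr6:108660341-108660580).
Bhlhe40 promoter: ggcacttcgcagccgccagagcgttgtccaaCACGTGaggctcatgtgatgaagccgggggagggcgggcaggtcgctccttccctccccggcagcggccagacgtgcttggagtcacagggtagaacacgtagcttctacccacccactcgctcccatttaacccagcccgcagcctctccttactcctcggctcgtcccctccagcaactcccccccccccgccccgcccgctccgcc

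Other clock motifs were rarer. The E-box variant CACGTT occurred in 9 of the 76 regions (11.8%), beside 5.04% of all regions of both libraries, and none of its 10 matches lay in a footprint of both libraries. The D-box that the PAR bZIP factors and NFIL3 themselves bind, searched as TTATGTAA on both strands, occurred in 2 regions (2.63%, beside 0.976%), at 364 bp in Nfil3 and at 34.2 kb in the Tef window. Its palindromic form TTACGTAA occurred in 0. The element bound by ROR and REV-ERB receptors, searched as NNTAGGTCA, occurred in 5 regions (6.58%, beside 2.32%), of which the members' own were the Dbp promoter, at -187 bp, and the Nfil3 start, at 26 bp. No D-box or ROR element of these regions lay in a footprint of both libraries, and over all regions 9.82% of TTATGTAA matches and 2.17% of ROR element matches did.

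In the members' own regions, GC boxes accounted for most motif matches found in footprints. Of 47 GC boxes there, 23 lay in a footprint of both libraries, against 37.5% of the matches in all regions of both libraries. Of the motifs searched, GC boxes also had the most matches in footprints of both libraries over all regions, 12148. CCAAT boxes numbered 23, of which 5 lay in a footprint of both, at Dbp, Tef and Ciart, against 10.2% over all regions. For NEUROD1-type E-boxes (CAGATG), 16 of the 76 regions held a match (21.1%, beside 26.1% of all regions).

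The 7 windows held 596 footprints in replicate 1 and 680 in replicate 2. Of these, 61.9% and 54.4% overlapped a footprint of the other library, beside 51% and 50.6% of all footprints. The most were at Dbp, with 181 and 175, and at Tef, with 146 and 207. The other 5 genes had between 48 and 83, beside a median of 28 and 27 over coding genes. The share of footprints that overlapped between libraries ran from 51.4% at Dbp to 77.8% at Bhlhe40 in replicate 1, and from 49.2% at Nfil3 to 70.8% at Ciart in replicate 2. Across all windows 71.6% and 60.1% of footprints overlapped a stricter peak of the same library, whether or not that peak was shared. At Dbp 63% and 42.3% did, and at Bhlhe41 88.9% and 79.3%.

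**Figure D5:**
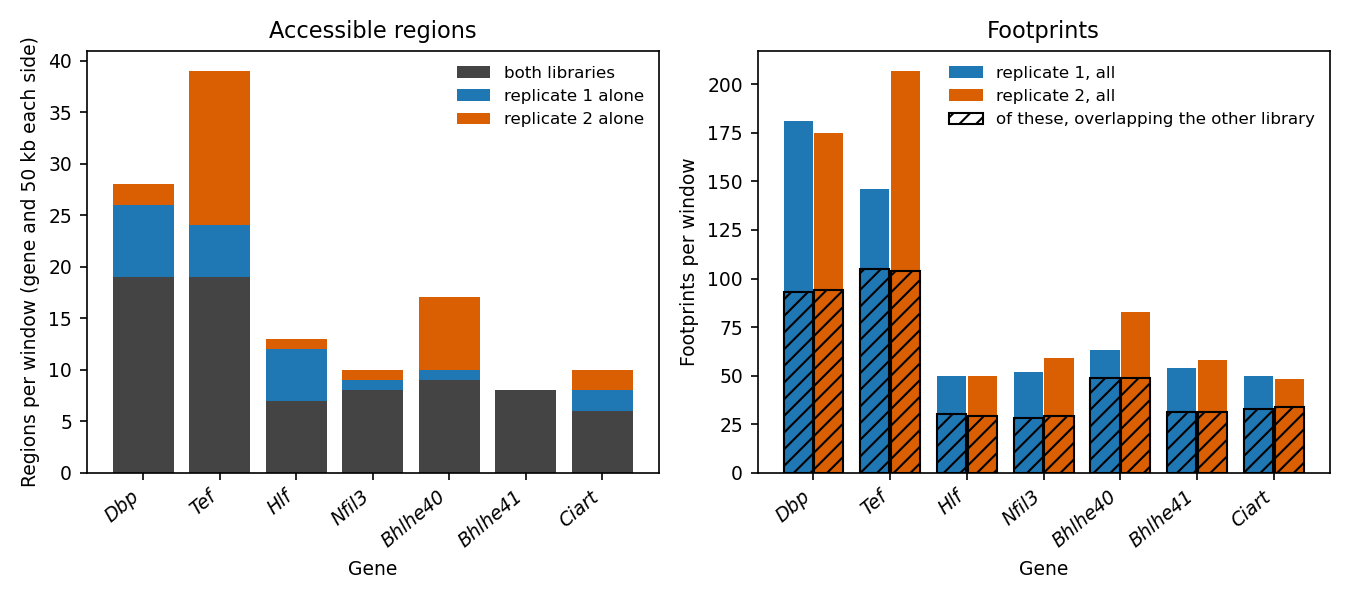
The left panel gives the accessible regions of each window, stacked as regions of both libraries (dark), of replicate 1 alone (blue) and of replicate 2 alone (orange); the right panel gives footprints of replicate 1 (blue) and replicate 2 (orange), hatched where they overlap a footprint of the other library. Regions of replicate 2 alone are concentrated at Tef, with 15, and Bhlhe40, with 7, and Bhlhe41 has no region of a single library.

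Regions found in a single library had signals from 0.291 to 3.79. The highest were in replicate 1 alone, with 3.79 at 0.2 kb in Bhlhe40, 3.1 at -0.5 kb in Ciart and 2.76 at 0.5 kb in Dbp. In replicate 2 these 3 regions held no peak of the stricter list or of the authors' longer list. Their lowest false discovery rates (FDR) in the authors' table for replicate 2 were nonetheless 3.43e-77, 2.06e-17 and 1.39e-11. Of all 49 regions of a single library, 24 had an FDR under 0.05 in the other library, 10 an FDR under 0.001, and 15 a peak in the other library's longer list. The Tef window held 15 regions of replicate 2 alone, with signals from 0.626 to 1.22, all between 29976 and 58480 bp. The Bhlhe40 window held 7, from 0.291 to 0.582, between 1.9 and 8.9 kb. Some regions of both libraries nearby had a far lower FDR in replicate 2 at a lower signal. The region of Bhlhe40 at 8.0 kb, with 5.93 and 4.06, had a lowest FDR of 3.41e-32 in replicate 1 and 1.29e-118 in replicate 2. The region of the Tef window at 53.8 kb, with 5.62 and 4.55, had 9.18e-11 and 1.33e-76. Others in the same stretch of the Tef window went the other way. The region at 32.2 kb, with signals of 0.985 and 1.22, had an FDR of 1.79e-16 in replicate 1 and 9.61e-12 in replicate 2.

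The FDR difference was not of the same sign everywhere in the member windows. In all 9 regions of both libraries at Bhlhe40 the FDR was lower in replicate 2, by a median of 63.99 in log10 units, whereas over all such peaks 59.7% were lower in replicate 2 and the median difference was 1.31. At Tef it was lower in replicate 2 in 12 of 19 regions, with a median of 2.69, but this median joined regions of opposite sign. The differences there ran from -21.88 to 94.47, where the 10th and 90th percentiles over all peaks were -8.84 and 19.52. Each of Tef's own regions had a higher FDR in replicate 2, with 1.72e-61 and 1.29e-39 at the first start. The region at 37.4 kb had 5.76e-31 in replicate 1 and 1.93e-125 in replicate 2. At Dbp the FDR was lower in replicate 2 in 3 of 19 regions, with a median of -3.70, and the Dbp region in intron 2 had 3.22e-70 in replicate 1 and 6.23e-32 in replicate 2. The part of this difference in the regions of a single library was not tested. Peaks of a single library counted in the peak totals, in the shares of peaks that overlapped and in the shares of footprints in peaks. Regions of a single library were left out of the motif shares.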

How the data were processed

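DNase-seq of 2 cerebellum libraries was analysed from the authors' deposited peak lists, footprints and FDR tables on mm10. Not given in the sources used here: aligner, callers of peaks and footprints, and versions. The deposited peak signal is a coverage value whose normalization is not stated. The deposited footprints carry 0.01, read here as a threshold on a p-value or q-value, and the FDR tables list intervals with an FDR under 0.05. The peak lists gave no usable summit, so the middle of a peak was used. Read totals were not used here; replicate 1 had 61776 stricter peaks, 99710 in the longer list and 314116 footprints, and replicate 2 had 71141, 114935 and 320832.

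Genes and starts came from GENCODE mouse release 21, and sequences from RefSeq GRCm38.p6. Overlap meant at least 1 bp. Peaks within 1 kb of any start were start peaks, and regions were merged overlapping peaks. Percentiles gave ties equal weight on either side. Motifs were matched without mismatches on both strands, with the letters given at each result and the CTCF motif by its consensus. No motif reported contains another. RefSeq promoters matched 6 of the 7 members.

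The text names all members, the 3 highest and 3 lowest of the other clock genes, every start or body region found in both libraries, the 3 strongest others of each window, and the neighbouring genes there. A result at a neighbouring gene is not reported here. Sequences were to come from start or body regions with a clock motif in a footprint of both libraries; exceptions are stated. Members and lists were chosen with earlier results of these data known. With a single group no test was made. Scripts used Python 3.11.15, NumPy 2.4.6, bedtools 2.31.1, samtools 1.23.1 and matplotlib 3.10.9, and were tested on simulated data. Alternatives were the longer list, the stronger part of the stricter list, other windows and overlaps, and each library alone.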

Additional observations from a re-analysis of the deposited data

How the results depend on the processing

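All 7 members kept a start peak in every alternative tried for that count, and the median percentile of their start signal, 81.7, stayed between 80.7 and 83.0. The 83 shared peaks became 109 with the longer list, 64 with the stronger part of the list, 62 with 25 kb flanks and 117 with 100 kb flanks. The 369 shared footprints fell to 228 when only those inside stricter peaks were kept, and were 596 to 680 with a library left out, where no sharing was required. The share of member regions with an E-box, 26.3%, ran from 18.7% to 31% over 5 alternatives chosen after seeing the data, beside 5.13% to 8.6% of all regions. No paired analysis was possible because the libraries form a single group. Signals have no stated scale and footprints no strength, and the number of libraries, 2, limits the precision of every SD.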
